A study of Rattus norvegicus with 6 samples.

Results

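The genes of the cytosolic ribosomal proteins were followed in the tibialis anterior of rats whose peroneal nerve had been cut and later repaired. They were taken as the probe sets that the array's annotation gives a single symbol of the numbered Rpl or Rps series, or Rplp0, Rplp1, Rplp2 or Rpsa, which gave 50 of 15923 probe sets. These stand for 44 genes, with 33 probe sets of 30 large subunit genes and 17 probe sets of 14 small subunit genes; Rplp1 and Rplp2 are not among them and were not analysed here. A further 34 probe sets carry several symbols, among them that of a ribosomal protein or a copy of one. They are not members, are not named here, and are given below as a group.

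The study used 3 male Wistar rats aged 8 weeks, numbered 4, 5 and 6. Each had its peroneal nerve transected and sewn to the biceps femoris muscle, and after a further 4 weeks the nerve stumps were joined. The ipsilateral group holds the operated side's muscle and the contralateral group the other leg's muscle of those animals, 1 array per muscle, with a survival of 8 weeks that was read as following the repair. All animals received ketamine and xylazine and all were operated on, so the contralateral muscle is not that of an unoperated rat.

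Ribosomal proteins clothe and shape the RNA core of the large and small ribosomal subunits, and their amounts are matched to each other so that whole particles can be built. Most of their mRNAs begin with a short stretch of C and T known as the 5′ terminal oligopyrimidine tract, through which growth signals set how strongly they are translated. In skeletal muscle the number of ribosomes limits protein synthesis, and a few family members have paralogs, of which Rpl3l is specific to skeletal muscle and heart.

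The start sites are shown first, because the tract is a known feature of most such mRNAs and played no part in choosing the members. The promoter table of RefSeq, build GRCr8, held 39 of the 44 genes, Rpl37a and Rps9 by symbol only; Rpl7, Rpl23a, Rpl27, Rpl30 and Rps29 were not matched. Of those 39, 23 (59.0%) had a run of at least 8 pyrimidines (C or T, gene strand) within 15 bases of the annotated start, against 11.4% of all 33469 gene starts in the table. The windows below are 30 bases long, 5′ to 3′, with the longest run of at least 8 pyrimidines in capitals. They are those of members whose values are described below, with and without a run. The last 6 are among the 16 matched members without one, which include core members and paralogs alike.
Rps24, chr16:96502-96531, + strand: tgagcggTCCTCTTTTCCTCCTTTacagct
Rps28, chr7:15311319-15311348, - strand: gcatcccctgctcacgtgaCTCCTCTCCgc
Rpl7a, chr3:30637121-30637150, + strand: CTCTCCTCCagccgagcaagatggtgagtg
Rpl21, chr12:13386139-13386168, - strand: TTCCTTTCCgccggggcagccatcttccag
Rpl23, chr10:83272170-83272199, - strand: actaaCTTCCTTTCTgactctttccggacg
Rpl37a, chr9:81748076-81748105, + strand: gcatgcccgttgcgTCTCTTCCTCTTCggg
Rplp0, chr12:46718376-46718405, - strand: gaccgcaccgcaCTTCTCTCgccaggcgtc
Rpl3, chr7:113507976-113508005, - strand: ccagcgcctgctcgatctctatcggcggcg
Rpl3l, chr10:14258431-14258460, + strand: gacctctggtgcctggtggggaggtccctt
Rpl7l1, chr9:21695703-21695732, + strand: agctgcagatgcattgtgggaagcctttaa
Rpl11, chr5:153560788-153560817, - strand: ggggacttgaagcttgtttggtgctgggga
Rpl39, chrX:121195882-121195911, - strand: tcttctaatcgcgttcttccggcctgtcct
Rps6, chr5:106420526-106420555, - strand: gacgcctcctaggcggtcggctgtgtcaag

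The run lies on either side of the annotated start and not only at the first base, so the annotated start may differ from the one used in muscle. Over the 300 bases from 250 before to 50 after the start, AAGATGG, the core of the YY1 motif, occurred on either strand in 8 of the 39 members (20.5%) and in 7.01% of all gene starts. The ETS-type motif CCGGAAG occurred in 9 (23.1%) against 8.75%, and the Sp1-type motif GGGCGG in 24 (61.5%) against 33.1%. TATAAA, searched on the gene strand, occurred in 4 (10.3%) against 8.80%. These are matches of letters and not tests, and many of the other starts in the table belong to non-coding genes or predicted loci.

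The main comparison asked how the muscle of the operated side differed from the other side of the same animal. No ribosomal protein gene passed the test, and the measured differences were small in both subunits. Values were compared as log2(intensity + 15.8), so a difference is log2 of ipsilateral over contralateral with a pseudocount, and limma was fitted with the animal as a block. Probe sets dimmer than an intensity of about 42.4 on average were not tested, which left 45 member probe sets of 42 genes, 30 of the large and 15 of the small subunit. In limma's fit over 9519 probe sets, 0 of the 45 had a Benjamini-Hochberg adjusted p under 0.05 (0% of all tested), and the lowest adjusted p among them was 0.776. Without adjustment, 0 of the 45 had a p under 0.05 in either direction, where all tested probe sets gave 6.36% (3.57% higher and 2.78% lower).

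The 45 differences ran from -0.30 to 0.25, and 0 of them reached 1.5-fold, a limit that 1.9% of all tested probe sets passed. Their median absolute difference was 0.083, against 0.129 over all tested probe sets and 0.125 over the top 10% of these by mean value. The 95% interval of the difference lay within 1.5-fold in either direction for 41 of the 45 (91.1%). That share was 69.4% over all tested probe sets and 76.3% over the top 10%. For the other 4 probe sets, those of Rpl37a and Rpl39, 1 of the pair of Rpl7l1 and 1 of the 3 of Rpsa, the interval reached past 1.5-fold on the lower side. Standard errors (SE) ran from 0.112 to 0.175 over 3 pairs.

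**Figure D1:**
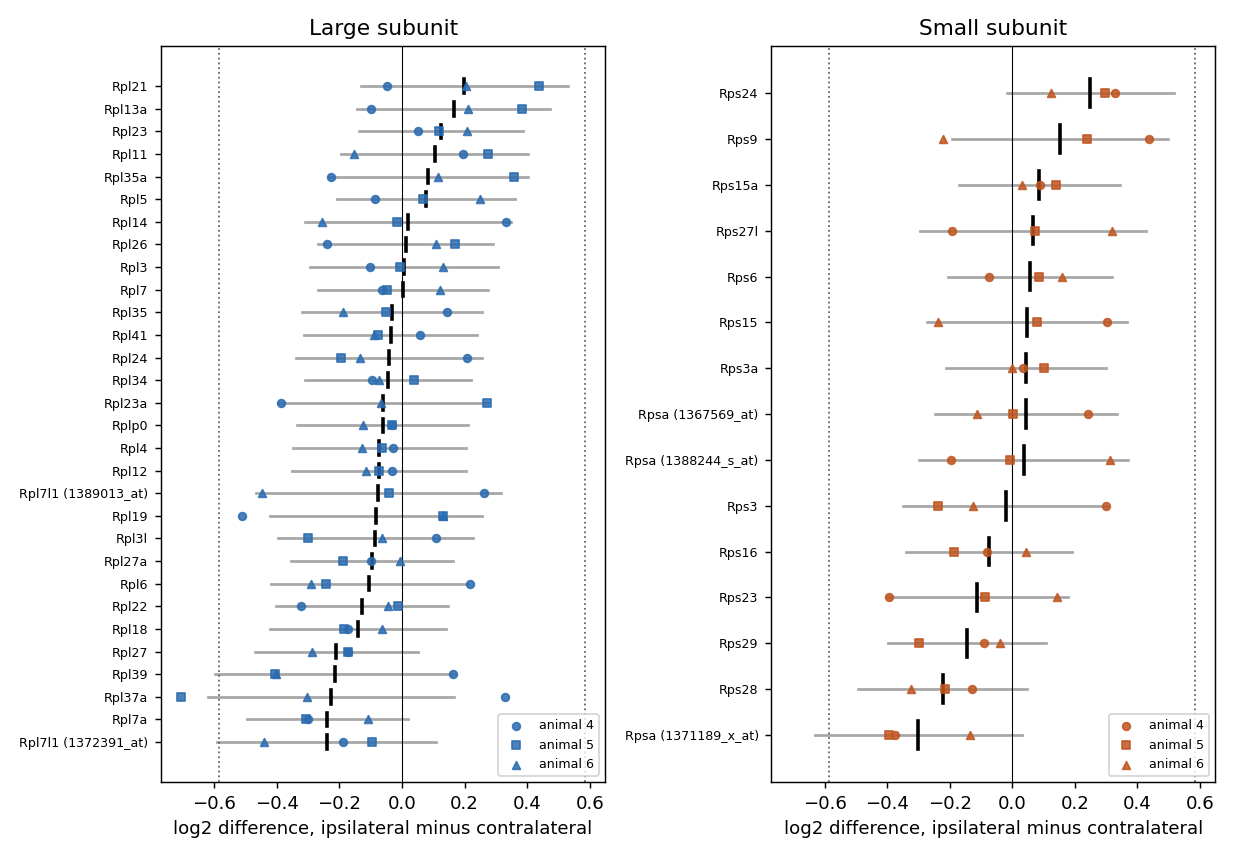
Log2 difference (ipsilateral minus contralateral) of each tested ribosomal protein probe set, by subunit; symbols are the 3 animals, black ticks the mean, grey bars limma's 95% interval, and dotted lines mark 1.5-fold. Means lie between -0.30 and 0.25, and animal 5 of Rpl37a, at -0.71, is the single symbol beyond a dotted line.

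Of the 45, 26 (57.8%) differed below 0, 20 of 30 for the large and 6 of 15 for the small subunit, against 53.3% of all tested probe sets and 57.9% of the top 10%. All 3 animals had the lower value ipsilaterally in 12 of the 45 (26.7%), 9 of 30 for the large and 3 of 15 for the small subunit, against 15.1% of all tested probe sets and 18.7% of the top 10%. In 3 (6.67%) it was higher in all 3, against 12.3% of all tested probe sets and 11.2% of the top 10%. Every ipsilateral intensity lay below every contralateral one in 5 (11.1%, against 5.78% of all tested and 8.40% of the top 10%). Every one lay above in 1 (2.22%, against 4.74% of all tested and 3.57% of the top 10%). The median difference was -0.061 for the large and 0.044 for the small subunit, with -0.016 over all tested probe sets. Leaving out animal 4, 5 or 6 gave a small subunit median of 0.0098, 0.042 and 0.0048, so it came nearly to 0 without animal 4 or animal 6. Means over the same probe sets were -0.049 and -0.0063, so the median and the mean of the small subunit differ in sign.

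By animal, the large subunit median was -0.055, -0.045 and -0.082 in animals 4, 5 and 6, and the small subunit median was -0.076, 0.003 and -0.001. Large minus small was thus 0.021, -0.049 and -0.081, and the order of the subunits was not the same in every animal. With the 34 probe sets of several symbols added, a choice made after seeing the data, the medians were -0.046 and 0.015. Of those 34, which were all bright enough to be tested, 0 passed the adjusted threshold and 1 had an unadjusted p under 0.05, higher, with a median of -0.021.

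Among large subunit genes, Rpl7a had the smallest unadjusted p. Its intensity was 4904, 4884 and 3956 contralaterally and 3980, 3947 and 3669 ipsilaterally in animals 4, 5 and 6. All ipsilateral values were below their own pair, but the groups overlapped in the ipsilateral value of animal 4. The difference was -0.24 (SE 0.11, adjusted p = 0.776 in limma), and -0.12 with quantile normalization of the arrays. Rpl27 went from 3780, 3410 and 3859 to 3352, 3024 and 3160, with every ipsilateral value below every contralateral one and a difference of -0.21 (SE 0.12). Rpl18, without overlap on the same side, went from 2242 ± 110 to 2033 ± 104 (SD, n = 3), a difference of -0.14 (SE 0.12).

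Rpl37a, a small zinc-binding protein of the large subunit and its brightest member, varied most. Its intensities were 4250, 7582 and 4613 contralaterally and 5338, 4642 and 3738 ipsilaterally. The contralateral library of animal 5 stood far above the other 5, and the sign differed between animals, at 0.33, -0.71 and -0.30. Its difference was -0.23 (SE 0.18), and -0.054 with quantile normalization. Rpl39, a short protein that lines the exit tunnel, was at 141, 215 and 205 contralaterally and 160, 158 and 151 ipsilaterally. Like Rpl37a it was higher ipsilaterally in animal 4, by 0.16, and lower in animals 5 and 6, by -0.41 and -0.40.

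The largest positive differences of the large subunit were those of Rpl21, Rpl13a and Rpl23. Rpl21 was at 1319, 999 and 1329 contralaterally and 1277, 1359 and 1535 ipsilaterally, a difference of 0.20 (SE 0.15) with -0.046 in animal 4. Rpl13a, a protein that also takes part in silencing of inflammatory mRNAs, went from 2323 ± 464 to 2575 ± 82.5, a difference of 0.17 (SE 0.14) with -0.099 in animal 4. Rpl23, which can bind the p53 regulator Mdm2, went from 3443, 3372 and 3071 to 3565, 3662 and 3548. It was the single member whose ipsilateral values all exceeded the contralateral ones, by 0.13 (SE 0.12).

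Rpl5 and Rpl11, which carry the 5S ribosomal RNA into the large subunit and can also bind Mdm2, differed by 0.08 (SE 0.13) and 0.11 (SE 0.13). Their signs split in different animals, since Rpl5 was lower in animal 4 and Rpl11 in animal 6. Rpl35a differed by 0.08 (SE 0.14) and Rpl22, an RNA-binding protein of the large subunit, by -0.13 (SE 0.12). Rplp0, the base of the stalk that recruits elongation factors, was at 2500, 2517 and 2525 contralaterally and 2448, 2463 and 2315 ipsilaterally. Its groups did not overlap, although the difference was only -0.062 (SE 0.12); its 6 libraries spanned 1.09-fold, the narrowest range of any member.

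Rpl3, a core protein next to the site of peptide bond formation, was at 1613, 1401 and 1384 contralaterally and 1500, 1396 and 1517 ipsilaterally. Its striated muscle paralog Rpl3l was at 1801, 1928 and 1415 contralaterally and 1945, 1563 and 1353 ipsilaterally. The groups overlapped for both. Rpl3 differed by 0.007 (SE 0.13) and Rpl3l by -0.085 (SE 0.14), with 95% intervals of 0.816-fold to 1.24-fold and 0.759-fold to 1.17-fold. Relative to Rpl3, Rpl3l shifted by 0.21, -0.30 and -0.19 in animals 4, 5 and 6, with no common direction. Rpl7l1, a paralog of Rpl7, has a pair of dim probe sets, which differed by -0.24 (SE 0.16) and -0.075 (SE 0.17).

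Among small subunit genes, Rps24, a protein of the body of the subunit needed to mature its RNA, had the largest positive difference. Its intensity was 2684, 3043 and 3422 contralaterally and 3370, 3743 and 3726 ipsilaterally. It was higher in all 3 animals, by 0.33, 0.30 and 0.12, while the groups overlapped through contralateral 6 and ipsilateral 4. The mean was 0.25 (SE 0.12, adjusted p = 0.776 in limma). Rps15a was also higher in all 3, by 0.086 (SE 0.11). Rps9, which lies near the mRNA channel, differed by 0.15 (SE 0.15), with 0.44 in animal 4 and -0.22 in animal 6.

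Rps28 and Rps29, small proteins of the head of the subunit, were lower in all 3 animals. Rps28 was at 3245, 3218 and 3124 contralaterally and 2966, 2770 and 2492 ipsilaterally, without overlap and with a difference of -0.22 (SE 0.12). Rps29, the brightest small subunit member, went from 5640 ± 509 to 5094 ± 219, a difference of -0.14 (SE 0.11). Rps23, a protein of the decoding centre, differed by -0.11 (SE 0.13) and Rps16 by -0.075 (SE 0.12). With quantile normalization of the arrays, the differences of Rps29, Rps23 and Rps16 were -0.0039, 0.0022 and -0.0019, while that of Rps28 was -0.19. Rps6, the substrate of the S6 kinases, was at 3914, 3783 and 3529 contralaterally and 3714, 4013 and 3943 ipsilaterally, with overlapping groups and a difference of 0.056 (SE 0.12). Rps27l, a p53-responsive paralog of Rps27, was dim, at 102 ± 13.5 and 107 ± 9.51, and differed by 0.066 (SE 0.16).

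Rpsa, a small subunit protein also known as the laminin receptor, was the single gene whose tested probe sets differed in sign. The brightest gave 0.044 (SE 0.13), a second, of probes shared within a gene family by its suffix, gave 0.036 (SE 0.15), and the dimmest gave -0.30 (SE 0.15). The last went from 731, 797 and 613 to 560, 603 and 557, without overlap; by its suffix some of its probes can bind other transcripts, so it may not report Rpsa alone. The 5 untested member probe sets were the dim second ones of Rpl14, Rpl7 and Rps24 and the only ones of Rpl30 and Rps4y2. For Rpl14 the dim one averaged 7.53 contralaterally and 9.33 ipsilaterally where the tested one averaged 2045 and 2083, so for these genes the bright probe set carries the result. The only probe set of Rpl30 averaged 27.2 ± 9.10 and 17.3 ± 5.07, and that of Rps4y2 29.0 ± 1.82 and 30.5 ± 1.43.

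The subunits had similar median intensities. Over the tested probe sets the median intensity was 2639 for the large and 2684 for the small subunit in contralateral 4, the closest pair. It was 2412 and 2492 in ipsilateral 6, and 2590.5 and 3124 in contralateral 6, where the subunits lay furthest apart. Across the 6 libraries the large subunit median was 0.829 to 0.983 of the small subunit median. A probe set's intensity also depends on its probes, so this ratio is not a ratio of transcripts. Of the 45, 40 lay in the top 10% of tested probe sets, 27 of the large and 13 of the small subunit.

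**Figure D2:**
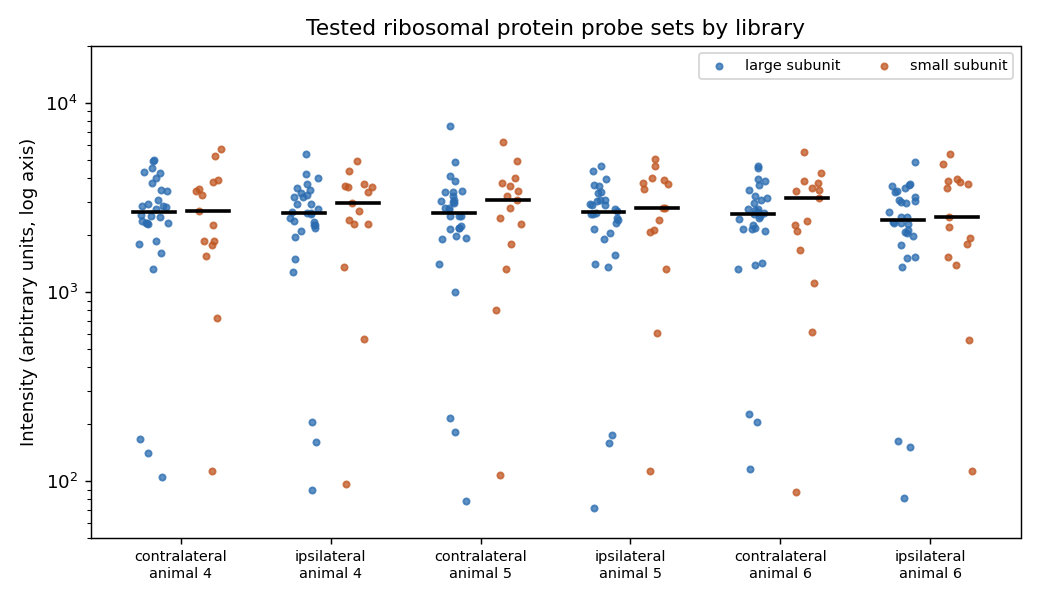
Intensity of the 45 tested ribosomal protein probe sets in each library on a log axis, with large subunit probe sets in blue, small subunit ones in orange and black lines at the medians. Medians of both subunits lie between 2412 and 3124 in all 6 libraries, and the dim points near 100 are those of Rpl7l1, Rpl39 and Rps27l.

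The spread of the members was also small. After removing animal and side, the residual SD had a median of 0.121 on the log2 scale over the 45 (0.124 for the large and 0.102 for the small subunit), against 0.176 over all tested probe sets and 0.160 over the top 10%. It ran from 0.030 for Rpl12 to 0.368 for Rpl37a. The residual SD has 2 degrees of freedom per probe set, so single values are rough. The 34 probe sets of several symbols had a median of 0.114.

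**Figure D3:**
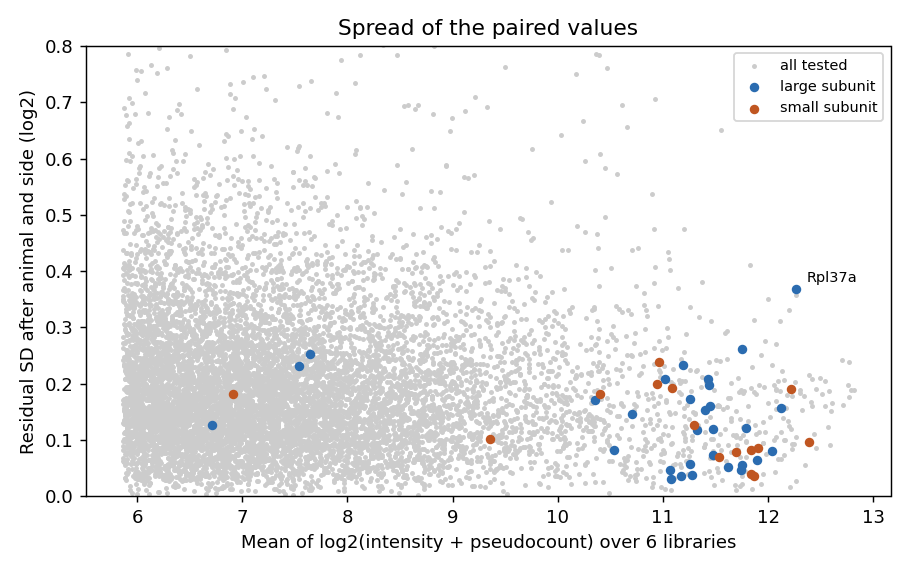
Residual SD of each tested probe set after animal and side against its mean log2 value, with all tested probe sets in grey (42 lie above the axis limit of 0.8). Member points have a median of 0.121 against 0.176 for all tested, and Rpl37a is the highest member at 0.368.

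The animals did not share 1 pattern. Across the 45 members, Pearson's r between the paired differences was 0.50 for animals 5 and 6, -0.41 for animals 4 and 6, and -0.077 for animals 4 and 5. Over the top 10% of tested probe sets the same values were 0.63, -0.26 and 0.10, and over the 34 probe sets of several symbols 0.03, 0.15 and 0.05. For animals 4 and 5 the subunits went opposite ways, with -0.39 for the large and 0.56 for the small subunit. For animals 5 and 6 these were 0.60 and 0.27, and for animals 4 and 6 -0.46 and -0.41. These are descriptions across probe sets, which share libraries and are not replicates. Rpl6, Rpl24, Rps3, Rpl37a and Rpl39 were higher ipsilaterally in animal 4 and lower in animals 5 and 6, and Rpl13a, Rpl19, Rpl21, Rpl26 and Rpl35a were the other way round; these 10 were chosen after their values were seen.

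**Figure D4:**
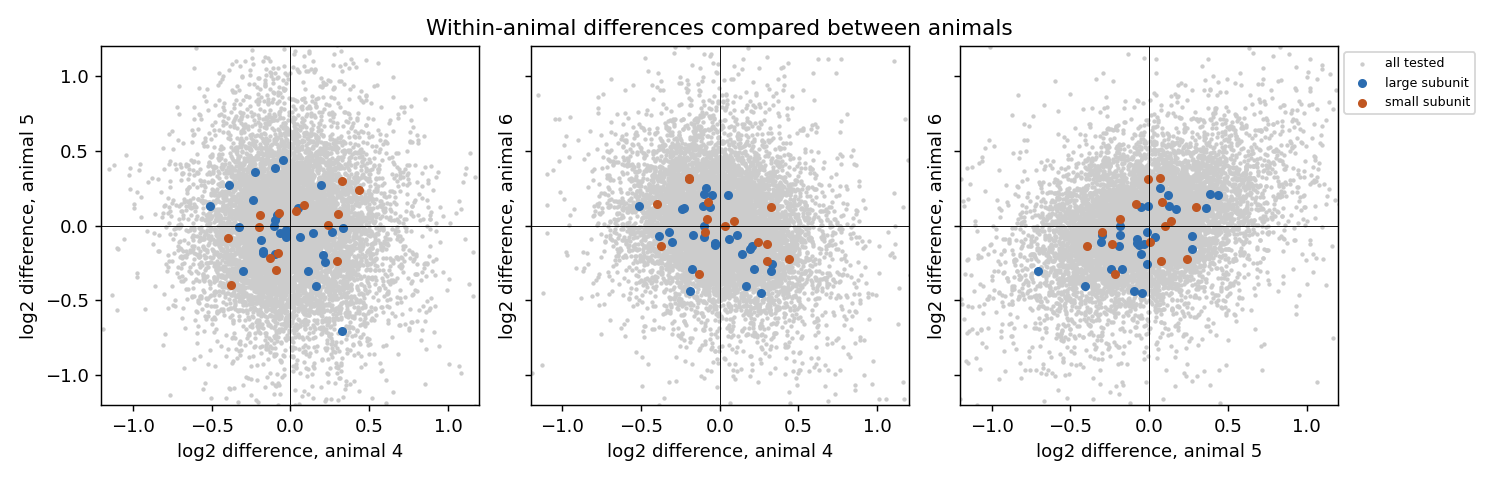
Within-animal log2 differences (ipsilateral minus contralateral) of one animal against another, with all tested probe sets in grey and members in colour; 182 grey points lie outside the axes of 1.2 in either direction in at least 1 animal. Members slope up for animals 5 and 6 (0.50) and down for animals 4 and 6 (-0.41).

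A pair of libraries stood apart in a control for RNA quality. Actin gave a 3′ over middle signal ratio of 2.77 for the contralateral library of animal 4 and 2.87 for the ipsilateral library of animal 6, and of 1.36 to 1.68 for the others, while that of Gapdh was 1.02 to 1.21 in all 6. Along the main shared pattern of the members, which held 46.4% of their variance between libraries, these 2 libraries lay on 1 side (-0.30 and -0.57) and contralateral 5 on the other (0.74), with Rpl37a, Rps3 and Rpl6 highest and Rpl21, Rpl35a and Rpl23a lowest. The part of RNA quality in this pattern was not tested. Without both libraries and without the pairing, a choice made after seeing the data, 0 members passed the adjusted threshold and the medians were -0.0023 for the large and 0.046 for the small subunit.

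Other genes of translation were read from lists, on the brightest probe set of each gene, and 0 passed the adjusted threshold. Mitochondrial ribosomal proteins, which serve the separate ribosomes of mitochondria, had 71 tested genes with a median of -0.054; 18 (25.4%) were lower in all 3 animals and 3 (4.23%) were higher in all 3, against 15.1% and 12.3% of all tested probe sets. At an unadjusted p under 0.05, 1 of the 71 was lower, Mrpl27, which went from 1085 ± 113 to 837 ± 249, a difference of -0.40 (SE 0.16). Of 36 ribosome biogenesis genes, 1 was higher and 1 lower at that level, with a median of -0.059. The nucleolar gene Rrp1b had intensities of 130 ± 11.2 and 214 ± 67.0 and differed by 0.61 (SE 0.20), with 0.026 in animal 4. Dkc1, which modifies ribosomal RNA, differed by -0.38 (SE 0.17).

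Of 34 initiation factor genes, 1 was lower at an unadjusted p under 0.05, the exchange factor subunit Eif2b1, by -0.36 (SE 0.16), and the median was -0.023. None of 9 elongation factor genes had an unadjusted p under 0.05 in limma, and 0 passed the adjusted threshold. Their median was -0.087, with 0.088, -0.108 and -0.146 in animals 4, 5 and 6. Eef1a1, the widespread form of elongation factor 1 alpha, was at 2239 ± 166 and 2420 ± 50.4, a difference of 0.11 (SE 0.13). Eef1a2, its form in mature muscle, differed by -0.0072 (SE 0.15), and Eef2 by -0.095 (SE 0.14). Other mRNAs with a terminal oligopyrimidine tract (13 genes, median 0.017) and growth regulators such as Mtor (13 genes, median -0.029) had 0 genes at an unadjusted p under 0.05. The first of these medians was 0.126 without animal 4 and -0.047 without animal 5, so its size and sign rest on single animals.

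The muscle label was matched by its markers, with Acta1, Ckm, Mb and Des at mean intensities from 2993 to 7326. Markers of other cells were measured beside the members. The summed intensity of 7 macrophage and immune markers was 3819 to 4063 contralaterally and 2654 to 3668 ipsilaterally, with 3 of 6 tested lower at an unadjusted p under 0.05, against 2.78% of all tested probe sets. That of 5 adipocyte markers was 1087 to 1699 and 1551 to 2463, with 3 of 3 tested higher, against 3.57%. All 3 spermatid markers were higher at that level too (median 1.31), with sums of 81.5 to 276 contralaterally and 165 to 947 ipsilaterally. Muscle holds no spermatids, so these values cannot be read as cells of that type. Also higher at that level were 2 of 7 fibroblast markers (median 0.22) and 1 of 3 endothelial markers. Of 3 Schwann cell and nerve markers 1 was higher and 1 lower, as were 1 and 1 of the 7 muscle markers (median -0.19), and 0 of 3 erythroid ones had an unadjusted p under 0.05 in limma. No marker of these lists was at 0 on any array. Their part in the members' values was not tested, and in whole muscle fewer cells of a type and less RNA per cell cannot be told apart.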

How the data were processed

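Total RNA of 6 muscles was measured on 1 array each. The authors deposited 1 linear intensity per probe set and array; the trimmed mean of every array is about 150, as found from the values, so a change in total RNA or ribosome number per muscle would not be seen. Which software made them is not stated in the labels or the file. Samples were grouped and paired by title, "Cont" being read as contralateral. Both muscles come from 1 animal, which sets the pairing. Over tested probe sets the deviations of an animal's muscles from their group means correlated at -0.041, 0.072 and 0.129 in animals 4, 5 and 6. Over the members these correlations were -0.36, 0.46 and 0.15, so they differed in sign between animals.

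Log2 values used a pseudocount of 15.8, the 20th percentile of all intensities, with no further normalization. Probe sets above the 40th percentile of mean log2 were tested with limma 3.58.1 in R 4.3.3 (intensity trend, animal block, Benjamini-Hochberg over 9519). Simulated data held 67 changes of 1.5-fold, 67 of 2-fold and 66 of 4-fold, with independent noise and no library of differing RNA quality. On these, an adjusted p under 0.05 recovered 5.97% of 1.5-fold changes and 76.1% of 2-fold changes, with 4 false calls. Recovery in the real libraries may be lower. Most changes of 1.5-fold would therefore not be called. The number of arrays limits the precision, and p-values rest on 3 animals. Symbols come from a platform annotation that can be old; 48 of the 50 members were found by gene ID or accession in a GRCr8 gene table, all but those of Rpl37a and Rps9, which keep the annotation's symbol. Named members were the 5 largest differences of each sign per subunit, any at unadjusted p under 0.05 (none were), the brightest and dimmest, genes whose probe sets differ in sign, and a fixed set of 26 genes, 13 of which are members; from other lists, up to 4 genes at unadjusted p under 0.05 and some fixed ones. Genes that illustrate other patterns were chosen after their values were seen. Members and lists were chosen with earlier results of these data known. Alternatives covered the block, pseudocount, normalization, filter, variance prior, probe sets and each animal left out. Figures used matplotlib 3.10.9.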

Additional observations from a re-analysis of the deposited data

How the results depend on the processing

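No alternative gave a ribosomal protein probe set with an adjusted p under 0.05 in limma. Without the replicate block the count was 0 too. The medians stayed at -0.061 and 0.044, which dropping the block cannot change when every animal has both muscles. With each animal left out in turn, the count at an unadjusted p under 0.05 ran from 0 to 3, the large subunit median from -0.089 to -0.041, the small subunit median from 0.0048 to 0.042, large minus small from -0.099 to -0.046, and the count over all probe sets at an adjusted p under 0.05 from 0 to 241. The highest counts, 3 and 241, came without animal 4, where Rpl37a and Rpl39 were lower and Rpl21 higher with 1 residual degree of freedom; 15.7% of all tested probe sets had an unadjusted p under 0.05 there, against 6.67% of the members. With quantile normalization 1 member, Rps24, had an unadjusted p under 0.05 and the large subunit median was -0.027; without the filter on dim probe sets it was 1, a probe set of Rpsa, and with the probe sets of several symbols added also 1. Without contralateral 4, ipsilateral 6 and the pairing, the count was 1 for members (Rpl13a) and 1 over all probe sets, the large subunit median was -0.0023, and large minus small was -0.048. The cause of these shifts was not tested. Over 26 named genes, 352 of 364 values kept their sign, and 16 genes kept it under every alternative run. By size, 360 values moved by less than their SD between animals and 4 by more. Among the latter were Rpl7a, Rps15a and Rps29 with quantile normalization. A kept sign is not a kept size, since Rps29 was at -0.14 in the main fit and -0.0039 there. Of the 84 medians of the other translation lists under alternatives, 81 moved by less than their SD between animals. With only the block, filter, intensity trend, variance prior or probe set choice changed, the named differences and these medians came out identical. Such settings act mainly on SE and p-values, so they add to both totals without showing stability.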
